A study of Homo sapiens with 17 samples.

Results

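The 2768 regions described here are all stretches on the 22 autosomes where the study's authors called more or less H3K27me3 in replicatively senescent than in proliferating cells. They comprise 1403 mesas, broad stretches with more of the mark in senescent cells, and 1365 canyons, broad stretches with less. They were taken from 2814 mesas and canyons in all, of which 46 on chromosomes X and Y were set aside. The cells were IMR90, a line of human lung fibroblasts. Proliferating cells at population doubling 24 were compared with senescent cells passaged to doubling 87 and then kept for 2 weeks after growth stopped. H3K27me3 was mapped by chromatin immunoprecipitation and sequencing (ChIP-seq) in 4 proliferating and 2 senescent libraries, and histone H3 in 2 libraries of each kind. The regions are set against 3 other lists of the series. Lamina-associated domains (LADs) come from 1 lamin B1 library of proliferating cells. H3K4me3 mesas of replicative senescence come from 1 library of each state. Ras-induced H3K4me3 mesas come from 1 library of IMR90 cells at doubling 15, infected with pLNC-ER:Ras and given 100 nM 4-hydroxytamoxifen, against 1 control library at doubling 15. The lists give positions alone. Which of the libraries entered each list is not stated. No read depth and no value per library stands behind a region, so no difference between replicates could be tested, and whether libraries came from separate cultures is not given in the labels. Direction rests on the list names.

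H3K27me3, trimethylation of lysine 27 of histone H3, is laid down by Polycomb repressive complex 2 through its catalytic subunits EZH1 and EZH2 and accompanies silenced genes. Its broad domains are read and compacted by Polycomb repressive complex 1. LADs are long stretches of mostly silent chromatin at the nuclear lamina, and lamin B1, a filament protein of that lamina, is lost when fibroblasts become senescent. H3K4me3 normally marks active promoters. The question followed here is how gains and losses of H3K27me3 are laid out along each chromosome: whether they take turns, how far apart they lie, and what else differs where 1 gives way to the other.

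Losses took more of the genome than gains, although there were slightly fewer of them. Mesas covered 17.2% and canyons 35.6% of the 2789 Mb between the first and last region of any list on each autosome. These shares are the calls of the authors, and everything below is about their arrangement. The median mesa was 51.3 kb long (binomial 95% interval of the median, 44.4 to 60.2 kb) and the longest 8.63 Mb. The median canyon was 129 kb (106 to 153 kb) and the longest 18.5 Mb. Regions of 500 kb and over made up 237 mesas and 448 canyons and held 79.6% and 91.3% of the base pairs of their type. In the other direction, 697 mesas and 535 canyons were shorter than 50 kb. Intervals in the text treat regions as independent, which neighbours on a chromosome are not, and cover counting error only.

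Taken region by region, gains and losses hardly seemed to alternate. Of 2746 neighbouring pairs, 1319 switched between mesa and canyon, 734 joined a mesa to a mesa and 693 a canyon to a canyon. The switching share was 48.0% (exact binomial 95% interval, 46.1 to 49.9%). The numbers of mesas and canyons on each chromosome would give 49.9% with no regard to their order. Switching pairs were most frequent on chromosomes 21 (70.0% of only 30 pairs), 3 (57.8% of 147) and 11 (56.3% of 158). They were least frequent on chromosomes 2 (34.9% of 215), 8 (39.3% of 150) and 10 (40.7% of 162).

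That even split came from adding 2 kinds of pair that differed in the gap between the regions. Same-type neighbours were mostly separated by a sliver: the median gap was 2.50 kb between mesas (1.70 to 3.90 kb) and 1.00 kb between canyons (0.901 to 1.20 kb). The shortest was 101 bp, about 1 step of the 100 bp grid on which the regions start. In all, 952 of 1427 same-type gaps (66.7%) were 10 kb or less. Switching gaps had a median of 354.6 kb (328 to 386 kb), with the middle of the distribution between 161 and 751 kb (quartiles), and 15 of 1319 were 10 kb or less. Gains and losses were therefore parted by a long stretch called neither way, whereas most same-type neighbours lay nearly end to end.

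**Figure D1:**
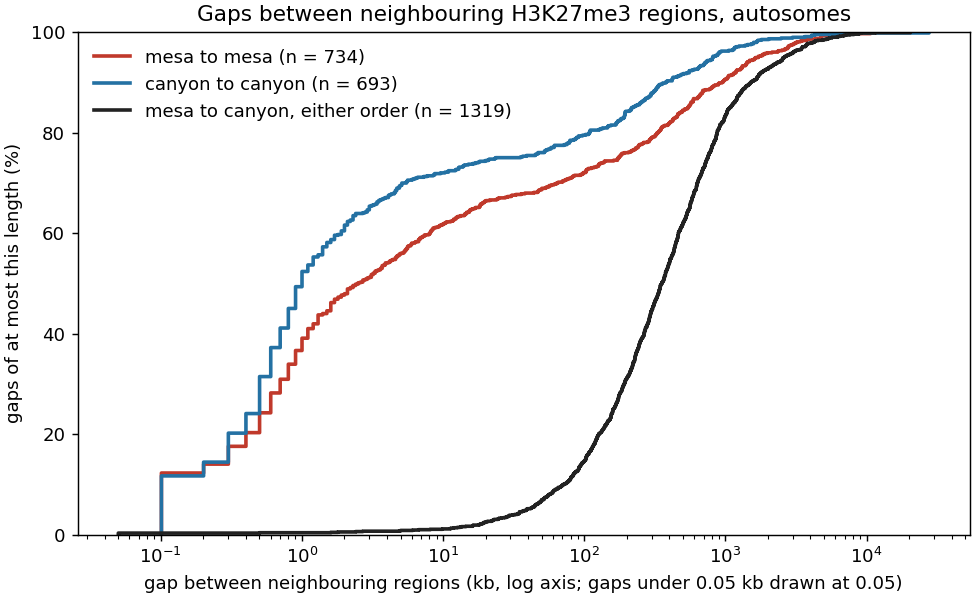
Cumulative share of gaps (vertical axis, percent) by gap length in kb on a log axis, for 734 mesa-to-mesa, 693 canyon-to-canyon and 1319 mesa-to-canyon pairs on the autosomes. At 10 kb the mesa curve stands at 61.7%, the canyon curve at 72.0% and the switching curve at 1.14%, from which it climbs to its median of 354.6 kb.

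Split by gap length, order was far from even. With 48.0% switching over all pairs, a low share at short gaps forces a higher share at longer gaps. Of 776 pairs with a gap of up to 2 kb, 0.902% switched (0.363 to 1.85%), and of 191 pairs at 2 to 10 kb, 4.19% (1.83 to 8.09%). At 10 to 50 kb the share was 48.7% (40.6 to 56.9%, 154 pairs). Beyond that, most pairs switched: 74.2% at 50 to 200 kb (69.8 to 78.3%, 430 pairs), 78.4% at 200 kb to 1 Mb (75.6 to 81.1%, 881 pairs) and 69.7% over 1 Mb (64.3 to 74.8%, 314 pairs).

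**Figure D2:**
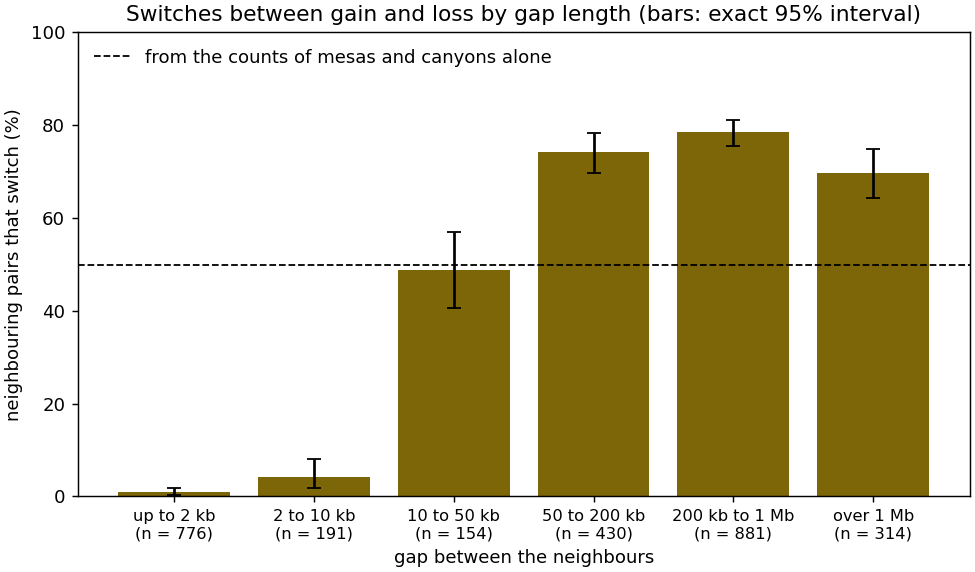
Share of neighbouring pairs that switch between mesa and canyon (vertical axis, percent) in 6 classes of gap length, with exact 95% intervals and the number of pairs under each bar. The dashed line at 49.9% is what the counts of mesas and canyons give over all gaps together, with no regard to order. It is not an expectation within a class. The 3 classes above 50 kb lie over it and the first 2 far under it, and the low shares force the others up.

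Joining same-type neighbours that lay within 10 kb of each other left 950 gain domains and 866 loss domains, with median lengths of 76.2 kb (58.6 to 99.0 kb) and 214 kb (141 to 293 kb). Of the 1794 pairs of neighbouring domains, 73.5% switched (71.4 to 75.6%). By chromosome the share ran from 60% on chromosome 2 to 82.9% on chromosome 5, and it was above 50% on 22 of 22. Joining removes same-type pairs only, so the share had to go up. The counts of domains alone would give 50.3%, a value that takes no account of the joining and is not an expectation for joined domains. A run, meaning neighbours of 1 type with none of the other between them, was a single domain in 1000 of 1341 cases. The longest chain in which every domain was followed by one of the other type had 25 members, against 16 among the regions as deposited.

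Distances to the nearest region also depended on whether close pieces were counted apart. From a mesa the nearest mesa lay at a median of 15.7 kb (8.30 to 32.8 kb) and the nearest canyon at 374.5 kb (339 to 400 kb). The nearest region was a canyon for 511 of 1403 mesas, or 36.4% (33.9 to 39.0%). From a canyon the nearest canyon was at 2.40 kb (1.60 to 4.20 kb) and the nearest mesa at 373 kb (341 to 413 kb). The nearest region was a mesa for 455 of 1365 canyons, or 33.3% (30.8 to 35.9%). Once pieces within 10 kb were joined, a mesa domain was at a median of 279 kb from the nearest canyon and 642 kb from the nearest mesa. The nearest domain was then a canyon for 68.8% of mesas (65.8 to 71.8%) and a mesa for 74.7% of canyons (71.7 to 77.6%). Joining takes away short same-type distances only, so these shares had to go up. Without joining, the nearest region was a canyon for 35.4% of mesas among regions of at least 50 kb, and for 38.8% by distance between midpoints. Among regions of at least 50 kb alone, both distances were longer, at 805 kb from mesa to canyon and 129 kb from mesa to mesa. With gaps over 3 Mb left out, the distance from mesa to mesa was 8.30 kb.

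Distance to the opposite change varied little with the size of a region. The nearest canyon was at a median of 369.6 kb (321 to 407 kb) from mesas under 50 kb, 390.6 kb (328 to 441 kb) from those of 50 to 500 kb and 350.1 kb (282 to 420 kb) from those of 500 kb and over. From canyons, the nearest mesa was at 339, 387 and 427 kb in the same classes, with intervals that overlapped between neighbouring classes. Distance to the nearest region of the same type differed more: it was 103 kb for mesas under 50 kb (55.7 to 214 kb) and 4.20 kb for those of 50 to 500 kb (1.60 to 7.40 kb). Among mesas, 13 lay within 10 kb of a canyon and 298 (21.2%) had none within 1 Mb. The mesa most remote from any canyon was 9.13 Mb away from it.

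Chromosomes varied in these distances. The median gap from mesa to nearest canyon ran from 177 kb on chromosome 21 to 936 kb on chromosome 4, and the median gap from mesa to nearest mesa from 0.901 kb on chromosome 22 to 667 kb on chromosome 4. On 18 of 22 autosomes the nearest mesa was closer than the nearest canyon by these medians. The others were chromosomes 3, 11, 19 and 21, on which the nearest region was a canyon for 52.0%, 61.8%, 62.1% and 71.4% of mesas. These chromosomes had 75, 68, 29 and 14 mesas, so the shares on chromosomes 19 and 21 rest on few.

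Direct contact of gain and loss was rare. Only 4 switching pairs had a gap of 0 or 1 bp, and 2 of them came from 1 place on chromosome 8. There a mesa of 9.60 kb (25926801 to 25936399, hg18) lay inside a canyon of 125 kb (25918701 to 26043599). The end of that canyon was also listed as a canyon of 47.8 kb (25995801 to 26043599), the single case of a canyon that began inside another. The other two were 1 bp apart, on chromosomes 10 and 16. On chromosome 10, a mesa of 9.80 kb (76822501 to 76832299) ended 1 bp before a canyon of 2686 kb (76832301 to 79518199).

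The strict alternation with the most regions was on chromosome 11 at 60445601 to 67288199 (6.84 Mb). It held 8 mesas and 8 canyons in strict turn, with gaps of 24.9 to 769 kb (median 397 kb). The mesas there were small, at 7.80 to 346 kb (median 17.2 kb), as were the canyons, at 11.6 to 363 kb (median 50.9 kb). LAD cover had the reverse order of the sums over all autosomes, in which long regions weigh most. In the chain LADs covered 26.4% of the mesas and 58.9% of the canyons, against 91.6% and 40.6% genome-wide. Regions under 50 kb with the other type on each side had the order of the chain. Over all autosomes LADs covered 61.5% of such mesas and 70.4% of such canyons. Replicative H3K4me3 mesas also covered the canyons more, at 51.8% against 25.4% of the mesas. The second such chain, on chromosome 21 at 37961901 to 46241099, had 14 regions in 8.28 Mb, and the third, on chromosome 1 at 33963601 to 43423899, had 10 in 9.46 Mb. In these 2 chains the mesas were the more LAD-rich, at 84.2% against 31.2% of base pairs and at 82.5% against 48.9%. These sums weigh long regions most. Counted by region, 3 of 7 mesas and 2 of 7 canyons on chromosome 21 lay at least 50% in LADs, 3 of 5 and 4 of 5 on chromosome 1, and 3 of 8 and 6 of 8 on chromosome 11. H3K4me3 mesas covered 22.3% of the mesas and 58.9% of the canyons in the chain on chromosome 21, and 66.0% and 0% in the chain on chromosome 1. Chains of at least 5 regions numbered 90, held 578 regions (20.9%) and occurred on all 22 autosomes.

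At the finest scale, the first 2 of the windows of 1 Mb with the most switches were on chromosome 12. The window at 4000001 to 5000000 held the midpoints of 5 switching gaps, with 4.51% of it under mesas and 8.25% under canyons, and lay 100% in LADs. The window at 50000001 to 51000000 also had 5, with 7.84% under mesas and 10.4% under canyons, and lay 19.0% in LADs. The third window, on chromosome 1 at 201000001 to 202000000, had 4, with 1.85% under mesas and 49.9% under canyons, and lay 0% in LADs.

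The longest stretches without any switch ranged from nearly filled by regions to mostly gap. Ranking by span favours runs that hold a long gap, and the fill of all runs was not compared. Canyons filled 2 of the 3 longest canyon runs. These were on chromosome 2 at 181827301 to 205011399, where 4 canyons took 97.2% of 23.2 Mb, and on chromosome 5 at 16528801 to 35238899, where 4 canyons took 99.98% of 18.7 Mb. A longer canyon run, 28.2 Mb on chromosome 9 at 38086101 to 66280099, was 1.65% canyon and held a gap of 27.7 Mb. Gaps over 3 Mb, of which 7 lay between canyons, 18 between mesas and 55 between a mesa and a canyon, can include centromeres and unassembled sequence. The longest mesa runs were sparse. On chromosome 19 at 19453701 to 38396499, 8 mesas took 31.1% of 18.9 Mb around a gap of 11.6 Mb. On chromosome 4 at 57957301 to 68739699, 3 mesas took 0.949% of 10.8 Mb, and at 160680501 to 171155599, 5 mesas took 4.81% of 10.5 Mb. The run with the most mesas was dense: 19 of them took 90.8% of 8.08 Mb on chromosome 8 at 136102001 to 144181799, of which 89.0% lay in LADs. The run with the most canyons had 14 in 18.2 Mb on chromosome 2 at 218618201 to 236861899, of which they took 83.6%. With gaps included, LADs covered 55.1% of this run. In order of span, they covered 35.4%, 53.5% and 76.8% of the 3 longest canyon runs. For the 3 longest mesa runs the LAD shares were 56.8%, 95.2% and 86.6%.

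Windows of 1 Mb showed how coarse the mosaic was. Of 2803 windows, 575 (20.5%, 19.0 to 22.1%) met both a mesa and a canyon, 619 (22.1%) a mesa only, 1089 (38.9%) a canyon only and 520 (18.6%) neither. In all, 42.6% of windows met a mesa and 59.4% a canyon. The product of these shares is 25.3%, somewhat above the 20.5% that met both. A share below the product is forced to some degree, since the sets all but exclude each other and can fill a window. Mesa cover exceeded canyon cover in 855 windows (30.5%, 28.8 to 32.2%) and the reverse held in 1428 (50.9%). Windows all but filled by 1 change were common: 247 were at least 90% mesa and 691 at least 90% canyon. Windows with at least 10% of each numbered 145 (5.17%). Windows that held both contained 22.9% of the mesas and 14.2% of the canyons by length. The share holding both grew with the window, from 7.32% at 500 kb to 42.0% at 2 Mb.

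Mesa and canyon cover of a window went opposite ways, as they must to some degree since the sets all but exclude each other. Over the 2803 windows Pearson's r was -0.41 and Spearman's rho -0.44, and r was negative on every autosome, from -0.54 to -0.17. Both values are descriptions, because windows share libraries and neighbours are alike. The net change of a window, mesa minus canyon cover, had an r of 0.68 with that of the next window, 0.41 at a distance of 2 Mb, 0.28 at 3 Mb, 0.14 at 5 Mb and 0.069 at 10 Mb.

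By chromosome, canyon cover was above mesa cover on 19 of 22 autosomes. The exceptions were chromosomes 20 (27.8% mesa, 19.0% canyon), 16 (28.8% and 23.7%) and 22 (25.7% and 21.6%). The balance leaned most towards loss on chromosomes 13 (3.75% mesa, 60.5% canyon), 4 (2.97% and 35.9%) and 6 (10.1% and 41.1%). Chromosome 20 also had 34.9% of its windows holding both changes and chromosome 22 had 36.1%, while chromosome 4 had 12.5%. These shares depend on how many windows met each change at all. On chromosome 4, 36.5% of windows met neither change, against 4.76% on chromosome 20 and 5.56% on chromosome 22. Mesas made up 59.4% of the changed base pairs on chromosome 20 and 5.84% on chromosome 13. Over the 22 autosomes the r of mesa with canyon cover was -0.53 and rho -0.44, again as a description.

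**Figure D3:**
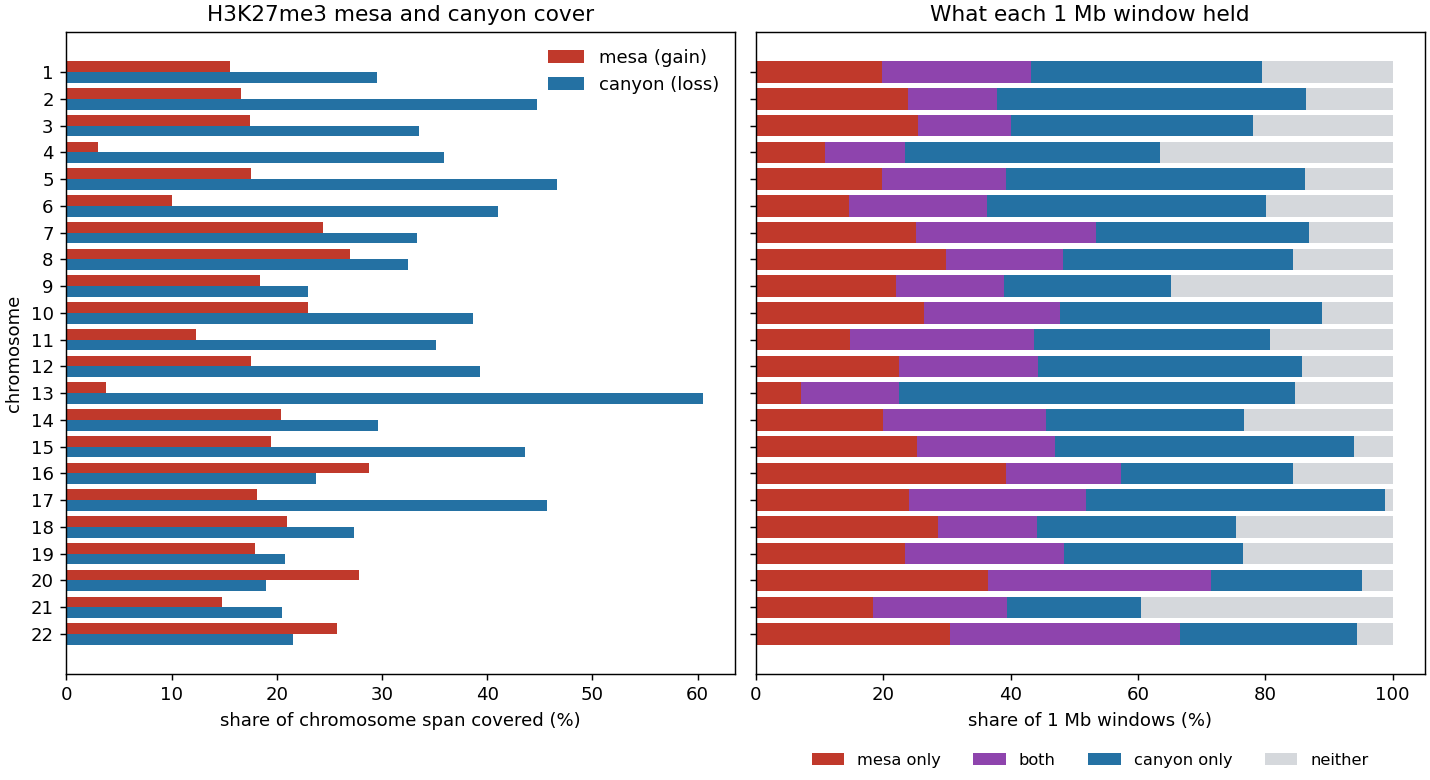
Left, share of each autosome's span under H3K27me3 mesas (red) and canyons (blue), in percent; right, share of its 1 Mb windows that met mesas only, both, canyons only or neither. Canyon bars are the longer ones except on chromosomes 16, 20 and 22, and chromosomes 4 and 13 have the shortest mesa bars, at 2.97% and 3.75%.

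Lamin B1 contact and H3K4me3, which were not used here to pick the regions, differed between the kinds of window. Whether the authors' calls for the lists shared H3 libraries is not stated. LADs covered 83.8% of windows with mesas only, 63.8% of windows with both, 43.6% of windows with canyons only and 68.6% of windows with neither. Windows with mesas only exceeded those with canyons only on 22 of 22 chromosomes, and those with both on 22 of 22. Replicative H3K4me3 mesas covered 29.6%, 24.1%, 7.18% and 10.4% of the same classes. Windows with both exceeded windows with canyons only in H3K4me3 mesa cover on 21 of 22 chromosomes. For Ras-induced H3K4me3 mesas the values were 42.3%, 33.6%, 14.6% and 12.1%. Over the whole span the shares were 61.2% for LADs, 16.2% for replicative and 24.2% for Ras-induced H3K4me3 mesas. LAD cover of windows with neither change varied from 20% to 89.0% between chromosomes, and this class includes the 76 windows that met no region of any list.

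Where the partners of a switching pair differed in LAD cover, the mesa was more often the higher. Of 1319 pairs, LAD cover was higher in the mesa in 581, higher in the canyon in 252 and equal in 486, of which 391 had both partners wholly in LADs. The mesa was the higher in 69.7% of unequal pairs (66.5 to 72.9%), and in the majority of them on 21 of 22 chromosomes. Replicative H3K4me3 mesas covered the mesa more in 414 pairs and the canyon more in 127 (76.5% of unequal pairs, 72.7 to 80.0%), with that majority on 22 of 22 chromosomes. Most pairs, 778, were equal in this cover, and in 682 of them neither partner had any. For Ras-induced H3K4me3 mesas the numbers were 387 and 212 (64.6%, 60.6 to 68.4%), and the majority had the mesa higher on 19 chromosomes and the canyon higher on none. Here 720 pairs were equal, and in 546 of them neither partner had any cover. The canyon was the longer partner in 831 pairs and the mesa in 484. Pairs were not split by length, and a region with the other type on each side entered a pair on each side. Among such regions under 50 kb the order was reversed: 60.6% of mesas and 71.3% of canyons lay at least 50% in LADs.

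Passing from a canyon to the mesa next to it, LAD cover was higher towards the mesa, with little difference between the edge of the canyon and the nearest parts of the gap. It was 40.8% at 100 to 200 kb inside the canyon and 56.8% in the 100 kb at its edge. Through the 5 equal parts of the gap it was 55.9%, 56.2%, 59.9%, 65.3% and 73.7%, and it reached 82.9% in the first 100 kb of the mesa and 90.1% at 100 to 200 kb. The bins deepest inside hold only regions long enough to reach them, 608 canyons and 485 mesas of 1249 pairs. Replicative H3K4me3 mesa cover was 12.3% and 17.4% in the same bins of the canyon, 14.2% at the canyon side of the gap, 27.8% at the mesa side and 44.4% inside the mesa. Gaps between mesas dipped in the middle, from 77.6% and 80.0% LAD cover in their outermost parts to 63.4% in the central part. Gaps between canyons varied less, with 59.0%, 64.7%, 65.2%, 63.5% and 64.4% through their 5 parts.

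**Figure D4:**
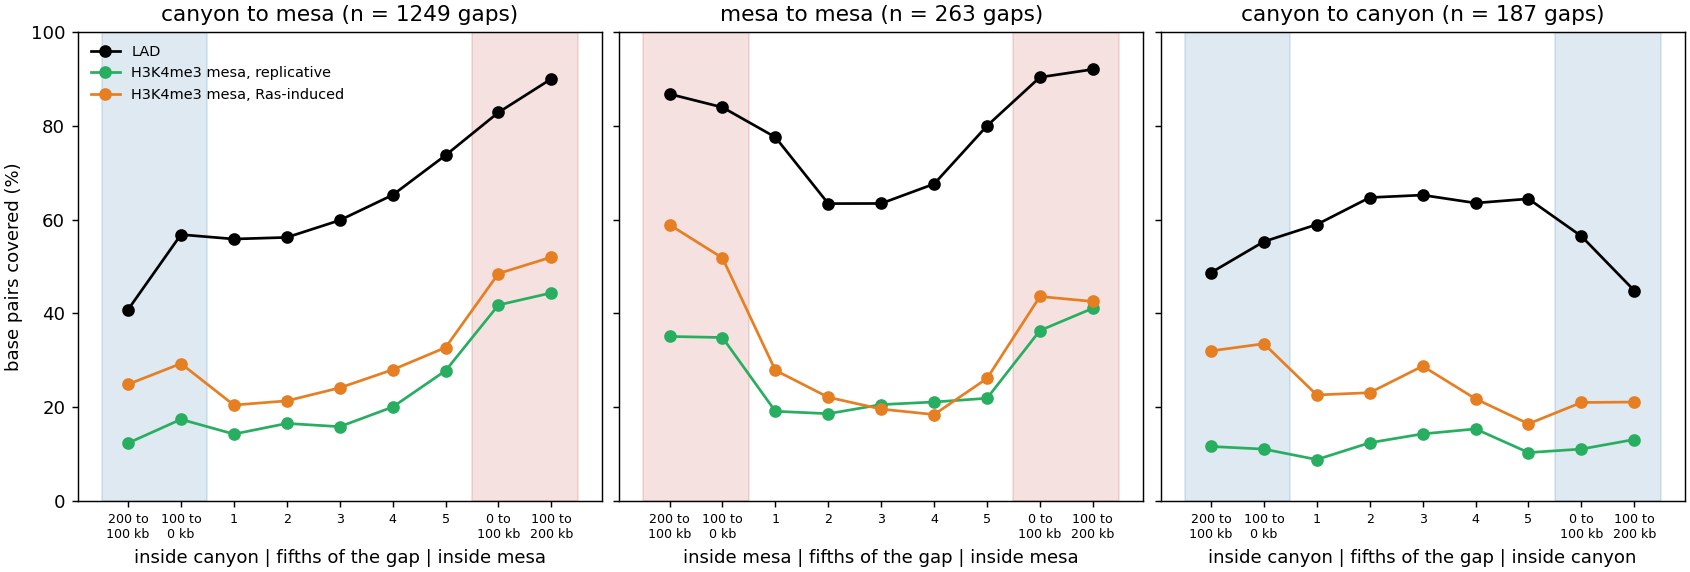
Base pairs covered (percent) by LADs, replicative H3K4me3 mesas and Ras-induced H3K4me3 mesas, in 100 kb bins inside the regions (shaded blue for canyons, red for mesas) and in 5 equal parts of the gap between them, for gaps over 10 kb and up to 3 Mb. LAD cover goes from 40.8% inside the canyon to 90.1% inside the mesa, dips between 2 mesas (77.6%, 63.4% and 80.0% in parts 1, 3 and 5) and stays between 59.0% and 65.2% between 2 canyons; same-type pairs are drawn in chromosome order.

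LAD edges were far more frequent in switching gaps than in same-type gaps, but much less so once gaps of like length were compared. A LAD edge lay in 52.2% of switching gaps (49.4 to 54.9%) and in 14.6% of same-type gaps (12.8 to 16.5%), of which most were very short. At 50 to 200 kb the shares were 18.2% (14.1 to 22.9%) and 16.2% (9.90 to 24.4%). At 200 kb to 1 Mb they were 62.2% (58.5 to 65.9%) and 55.8% (48.4 to 63.0%), and over 1 Mb 88.6% (83.6 to 92.5%) and 81.1% (71.7 to 88.4%). The intervals overlapped in each of these 3 classes. Split by type, same-type gaps were not uniformly the lower: at 50 to 200 kb the share was 21.1% (11.4 to 33.9%) between canyons, and at 200 kb to 1 Mb it was 62.6% (52.7 to 71.8%) between mesas. Switching gaps without a LAD edge lay wholly inside or wholly outside a LAD. LAD edges lie on a grid of 10000 bp, which limits this reading for short gaps.

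LAD and H3K4me3 cover of short regions varied with the type of their neighbours. Among mesas under 50 kb, 203 had a canyon on each side, 204 a mesa on each side and 283 had 1 of each. The share lying at least 50% in LADs was 60.6% (53.5 to 67.4%) between canyons, 78.8% (73.6 to 83.4%) with 1 of each and 91.7% (87.0 to 95.1%) between mesas. With same-type pieces within 10 kb joined, it was 60.4% (53.5 to 67.0%) between canyons and 94.4% between mesas. The interval between mesas was then wider (81.3 to 99.3%), because joining left fewer such mesas. By base pairs, LADs covered 61.5% of the short mesas between canyons, close to the 61.2% of the whole span and above the 40.6% of all canyons, and 93.1% of those between mesas. For replicative H3K4me3 mesas the shares were 21.2% (15.8 to 27.5%), 31.1% (25.7 to 36.8%) and 46.6% (39.6 to 53.7%). For Ras-induced H3K4me3 mesas they were 27.1% (21.1 to 33.8%), 43.8% (38.0 to 49.8%) and 57.8% (50.7 to 64.7%). Summed by chromosome, LAD cover of short mesas was lower between canyons than between mesas on 16 of 21 chromosomes that had both kinds, and higher on 1.

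Short canyons were more often in LADs where a mesa was next to them. Of 178 short canyons with a mesa on each side, 71.3% lay at least 50% in LADs (64.1 to 77.9%), against 71.8% (65.5 to 77.6%) of 227 with 1 of each and 43.9% (34.6 to 53.5%) of 114 with a canyon on each side. Their LAD cover was higher between mesas on 16 of 22 chromosomes and lower on 5. For replicative H3K4me3 mesas the difference was smaller, at 23.0% (17.1 to 29.9%) between mesas and 12.3% (6.88 to 19.7%) between canyons, with overlapping intervals. For Ras-induced H3K4me3 mesas the shares were 37.6% (30.5 to 45.2%) and 26.3% (18.5 to 35.4%), also with overlapping intervals. By chromosome, cover was higher between mesas on 11 and lower on 4 for the replicative list. For the Ras-induced list it was higher on 17 and lower on 3. The contrast by neighbours was weaker in long regions: mesas of 500 kb and over had 92.8% of their base pairs in LADs between canyons and 93.5% between mesas, and long canyons had 38.1% between mesas and 40.3% between canyons.

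**Figure D5:**
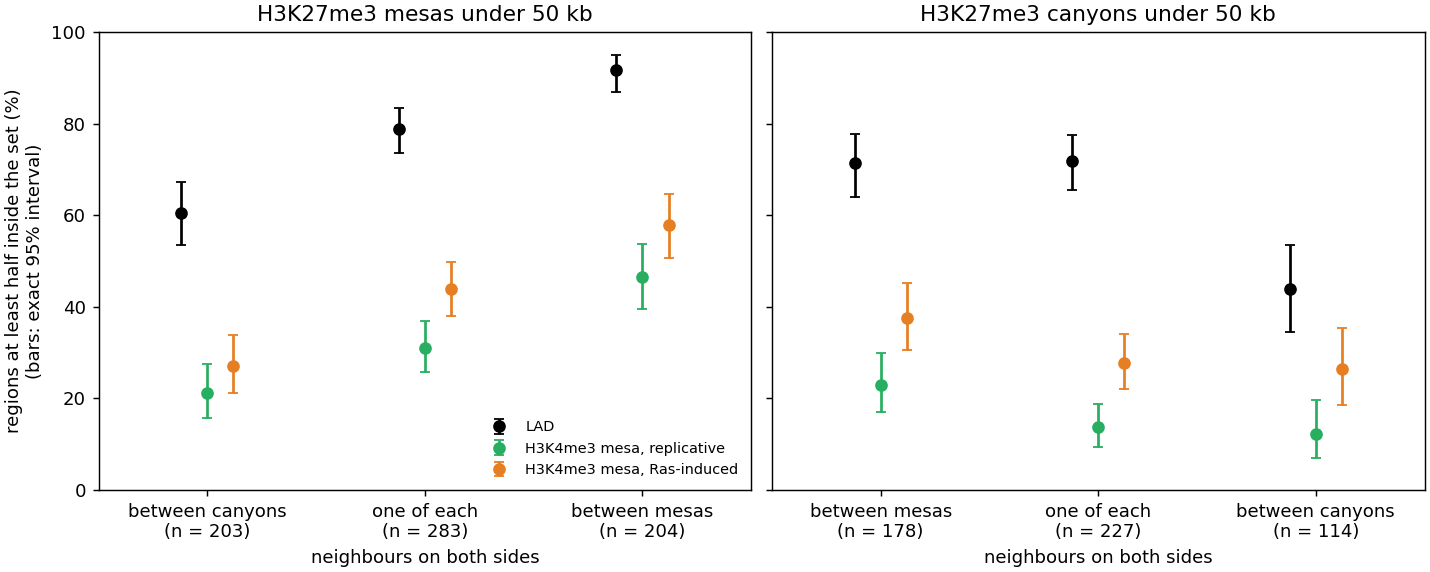
Share of regions under 50 kb (percent, with exact 95% intervals) lying at least 50% inside LADs, replicative H3K4me3 mesas or Ras-induced H3K4me3 mesas, by the type of the neighbours on both sides; left, mesas, right, canyons. For mesas all 3 sets go up from left to right, LADs from 60.6% to 91.7%, and for canyons LADs go down from 71.3% to 43.9%.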

How the data were processed

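Bowtie 0.12.5 and the build hg18 are named, per the submitters' processing notes. The authors deposited 5 lists of regions, each giving chromosome, start and end (other than these positions the lists hold no value used here). How regions were called, at which thresholds, with what use of H3 and whether on pooled replicates is not given in the sources used here. Read depth is unknown.

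H3K27me3 mesas and canyons on chromosomes 1 to 22 were sorted by start. A gap ran from the highest end so far to the next start. The span of a chromosome was bounded by the outermost regions of the 5 lists together. Windows of 1 Mb counted from position 0, and any overlap of 1 bp placed a region in one. Intervals of 95% were exact binomial (Clopper-Pearson) for shares and binomial order statistics for medians. No test was run, since no value per library exists. The functions were tested on simulated data. Python 3.11.15, numpy 2.4.6, pandas 2.3.3 and scipy 1.17.1 were used.

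Named places were the 3 longest runs of each type, longest strict alternations, windows richest in switches, closest pairs, and the 3 chromosomes at each extreme of cover balance and switching share. The runs with the most regions and the split of short regions by neighbours were added after values were seen. Members and lists were chosen with earlier results of these data known. Genes and sequences were not placed, because the gene table used has another build.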

Additional observations from a re-analysis of the deposited data

How the results depend on the processing

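For 11 results values were recomputed under other choices, and 35 of 64 recomputed values stayed within the interval of the value reported. Window-class cover, pair counts, profiles, chains and short canyons were not recomputed. Joining same-type regions within 10 kb gave 73.5% switching pairs, 279 kb from mesa to canyon, 642 kb from mesa to mesa, 68.8% of mesas nearest to a canyon, 74.7% of canyons nearest to a mesa, and LAD edges in 42.9% of same-type gaps. This changed which type was the nearer, as it removes short same-type gaps only. Regions of at least 10 kb gave 44.9% switching pairs, 29.3% of canyons nearest to a mesa, 17.2% of windows with both, and LAD edges in 55.1% of switching and 18.3% of same-type gaps. Regions of at least 50 kb gave 39.0% switching pairs, 805 kb from mesa to canyon, 129 kb from mesa to mesa, 25.4% of canyons nearest to a mesa, 9.13% of windows with both, 26.5% with mesa cover higher, and LAD edges in 64.7% and 30.0% of gaps. Midpoint distances were 742 kb from mesa to canyon and 428 kb from mesa to mesa, with 41.3% of canyons nearest to a mesa. Windows of 500 kb and 2 Mb gave 7.32% and 42.0% with both, and 27.5% and 33.4% with mesa cover higher. Asking for 10% of each set gave 5.17% of windows with both, and adding chromosome X gave 32.3% with mesa cover higher. Widening gaps by 10 kb gave LAD edges in 17.0% of same-type gaps. Leaving out gaps over 3 Mb moved no value outside its interval, although the distance from mesa to mesa was then 8.30 kb. The alternatives on short mesas by neighbours were chosen after seeing the data and stayed within their intervals. The cause of these shifts was not tested. No replicate could be left out, because the lists hold no value per library. No paired analysis was possible because no column of the lists belongs to a replicate.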

Other observations

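Chromosome X, set aside above, had 35 mesas and 9 canyons, and mesas made up 89.9% of its changed base pairs. Of its 43 neighbouring pairs, 14 switched (32.6%). The nearest canyon was at a median of 2192 kb from a mesa and the nearest mesa at 5.20 kb. The canyons there were short, with a median of 16.8 kb. Of 155 windows of 1 Mb, 98 held mesas only, 12 canyons only, 6 both and 39 neither. For chromosome Y the authors' lists held 2 mesas and 0 canyons. Whether these calls reflect sequence of that chromosome could not be checked, because the lists give positions alone.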
